A study of Mus musculus with 4 samples.

Results

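The genes described here are 10 mouse antioxidant genes, many of them targets of the transcription factor NRF2: Hmox1, Nqo1, Gclm, Gclc, Txn1, Txnrd1, Prdx1, Sod1, Gpx1 and Cat. They were taken by symbol from a table of 27998 gene symbols, and each of the 10 had a row. Single-cell RNA sequencing had been carried out on MLL-AF9 leukaemia cells sorted for GFP from mouse bone marrow, in 4 samples with 1 sample for each combination of Hif-1a genotype and treatment. These were Hif-1a KO with chemotherapy, Hif-1a wt with chemotherapy, Hif-1a KO with PBS, and Hif-1a wt with PBS as the control. All 4 came from C57BL6 mice aged 11 weeks, and all 4 leukaemias started from c-Kit+ marrow of animals with a floxed Hif-1a gene and a CreERT2 transgene, so the wild-type samples carry the floxed alleles and the transgene too. MLL-AF9 is a fusion oncogene of acute myeloid leukaemia, here delivered by a retrovirus, and the cells had passed through wild-type hosts before the experiment. Per the labels' protocols, recipients received 1 mg tamoxifen or vehicle for 5 days from day 10, followed by PBS or by 100 mg/kg cytarabine for 5 days with 3 mg/kg doxorubicin for 3 days. Bone marrow was collected once 3 further days had passed. The promoter driving CreERT2, the number of mice per sample and any pooling of animals are not stated in the labels.

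Each cell barcode in the table ends in a suffix from 1 to 4, and no label or header ties a suffix to a sample. The suffixes are therefore 4 libraries with no assigned genotype or treatment, and no comparison between genotypes or treatments was made. Levels are given for each suffix and for cell classes that were named from marker genes. No p-value was computed, because cells of a library are not replicates and each combination has 1 sample. After removal of 208 barcodes with more than 10% mitochondrial UMIs, 5456 of 5664 barcodes remained, between 1174 and 1625 per suffix, with median depths from 5315 to 6435 UMIs per cell. Levels are UMIs of a gene scaled to the total of the same cells (CPM, counts per 1000000 UMIs), with 95% exact Poisson intervals that cover counting error only. In all, 17 barcode sequences occurred under more than 1 suffix. Markers of other marrow cells ranged widely. Over the 4 suffixes, 8 T and NK cell markers summed to 0 to 0.234 CPM with 6 of the 8 at 0, and 11 erythroid markers to 2.52 to 4.33 CPM with 4 at 0. Sums were 66.7 to 88.1 CPM for 7 B cell markers with 3 at 0, 80.0 to 97.2 CPM for 9 stromal and endothelial markers with 5 at 0, and 1.96 to 73.6 CPM for 8 eosinophil markers with 5 at 0. They were 91.7 to 371 CPM for 10 mast cell and basophil markers with 3 at 0, and 339 to 477 CPM for 12 dendritic cell and MHC class II markers with none at 0. The part of such cells in the levels below was not tested. Hif1a itself was counted at 26.5 to 38.5 CPM, and since the floxed part of the gene is not given in the labels, a count at the 3' end checks nothing about genotype.

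As background, NRF2 (gene Nfe2l2) is held in the cytoplasm and passed to degradation by KEAP1 while oxidants and electrophiles are scarce. When KEAP1 is modified by them, NRF2 enters the nucleus and binds antioxidant response elements together with a small MAF protein, and BACH1 competes for the same elements. In myeloid cells the system stands beside the NADPH oxidase and myeloperoxidase, which make reactive oxygen for killing microbes. Among the 10 genes, Hmox1 encodes heme oxygenase-1, which breaks down heme, and Nqo1 a quinone reductase. Gclc and Gclm encode the catalytic and modifier subunits of glutamate-cysteine ligase, which makes the first intermediate of glutathione. Txn1 encodes thioredoxin, Txnrd1 the reductase that recharges it, and Prdx1 a peroxiredoxin that thioredoxin serves. Sod1 encodes the copper and zinc superoxide dismutase, Gpx1 a glutathione peroxidase of the cytosol, and Cat catalase, both of which remove hydrogen peroxide.

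In the GENCODE annotation of GRCm38, the 10 are protein-coding genes that were matched by symbol. Hmox1 (ENSMUSG00000005413.8) lies at chr8:75093621-75100589 on the plus strand and Nqo1 (ENSMUSG00000003849.8) at chr8:107388225-107403206 on the minus strand. Gclm (ENSMUSG00000028124.15) lies at chr3:122245557-122270732 and Gclc (ENSMUSG00000032350.9) at chr9:77754535-77794485, both on the plus strand. Txn1 (ENSMUSG00000028367.5) lies at chr4:57943373-57956411 on the minus strand, Txnrd1 (ENSMUSG00000020250.10) at chr10:82833951-82897712 and Prdx1 (ENSMUSG00000028691.12) at chr4:116685544-116700822, both on the plus strand. Sod1 (ENSMUSG00000022982.10) lies at chr16:90220754-90226329 and Gpx1 (ENSMUSG00000063856.7) at chr9:108338903-108340343 on the plus strand, and Cat (ENSMUSG00000027187.10) at chr2:103453849-103485160 on the minus strand. The counts come from the 3' ends of transcripts and do not show which start or splice form was used.

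The antioxidant response element core TGACNNNGC was looked for on both strands of RefSeq promoter windows (build GRCm38.p6), which reach from 250 bases before to 50 after each gene's start. The table held windows for Nqo1, Gclm, Txn1, Txnrd1, Prdx1, Sod1, Gpx1 and Cat, with Hmox1 and Gclc named only. A match stood in windows of Gclm, Txnrd1, Prdx1 and Sod1, against 14.0% of 27025 genes with a window, and these letters were not in the windows of Nqo1, Txn1, Gpx1 and Cat. Bases outside the windows were not searched. The 250 bases before the start of the 4 genes with a match are shown, for Txnrd1 those of the only start, of 3, whose window holds it. The levels of these genes are given next, and whether they are linked to a match was not tested. Capitals mark the match, which in each runs on the reverse strand.
Gclm: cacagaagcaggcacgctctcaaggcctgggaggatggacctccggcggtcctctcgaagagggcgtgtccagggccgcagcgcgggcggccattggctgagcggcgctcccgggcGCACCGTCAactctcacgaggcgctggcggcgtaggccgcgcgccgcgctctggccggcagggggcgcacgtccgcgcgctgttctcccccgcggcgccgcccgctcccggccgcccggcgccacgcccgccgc
Txnrd1: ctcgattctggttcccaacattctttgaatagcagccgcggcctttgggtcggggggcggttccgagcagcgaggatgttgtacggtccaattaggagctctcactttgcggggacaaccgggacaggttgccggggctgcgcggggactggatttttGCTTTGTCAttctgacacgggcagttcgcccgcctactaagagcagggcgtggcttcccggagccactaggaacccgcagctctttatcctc
Prdx1: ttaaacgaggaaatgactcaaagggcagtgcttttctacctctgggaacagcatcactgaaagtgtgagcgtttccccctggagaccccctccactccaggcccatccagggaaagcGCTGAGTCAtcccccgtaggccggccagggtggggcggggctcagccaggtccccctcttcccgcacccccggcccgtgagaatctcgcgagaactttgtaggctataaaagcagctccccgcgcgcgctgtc
Sod1: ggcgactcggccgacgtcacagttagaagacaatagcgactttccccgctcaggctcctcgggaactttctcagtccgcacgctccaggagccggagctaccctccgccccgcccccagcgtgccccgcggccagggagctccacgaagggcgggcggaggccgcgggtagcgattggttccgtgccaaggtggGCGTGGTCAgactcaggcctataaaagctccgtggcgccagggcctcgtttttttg
The Gclm stretch lies at chr3:122245307-122245556, plus strand, and its match reads TGACGGTGC, with its first printed base 134 bases before the start. That of Prdx1 lies at chr4:116685349-116685598, plus strand, with TGACTCAGC 133 bases before the start. Sod1 is at chr16:90220512-90220761, plus strand, with TGACCACGC 56 bases before the start. For Txnrd1 the table gives 3 starts, and only the second, at chr10:82858956-82859205 on the plus strand, holds a match, TGACAAAGC, 92 bases before the start. A match is a description of these letters and not a measured binding site.

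Levels differed between suffixes by at least 1.5-fold, highest over lowest, for 7 of the 9 genes with a mean of at least 5 CPM, which was the minimum set for counting a gene. The same held for 41.9% of 8244 genes over that minimum, and the median ratio was 1.62 for the 9 genes and 1.43 for all 8244. At 2-fold the count was 3 of 9, against 12.8% of genes. Relative to each gene's mean over suffixes, the median of all genes lay at 0.10, 0.03, -0.09 and -0.06 on the log2 scale in suffixes 1 to 4, so a ratio with suffix 1 or 2 on top and suffix 3 or 4 below holds part of a shift common to most genes, and a ratio the other way round runs against that shift. With TMM factors, which take up such a shift, those medians were 0.01, 0.01, -0.02 and -0.01. The highest and lowest suffix of a gene were chosen from the same counts, and the intervals of the ratios below take no account of that choice.

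Hmox1 had 12.95, 12.0, 24.0 and 32.5 CPM in suffixes 1, 2, 3 and 4, and its ratio of highest to lowest was 2.71 (95% interval 2.15 to 3.44). It was high in suffix 4, intermediate in suffix 3 and low in suffixes 1 and 2, whose intervals overlapped. Monocyte-like cells, the class with the highest Hmox1 level, made up 0.256%, 1.20%, 21.5% and 19.4% of the cells in suffixes 1 to 4. When 4 clusters with at least 30 cells in every suffix were weighted equally, the ratio of suffix 4 to suffix 2 was 1.15. Nqo1 was nearly absent, with 13, 9, 5 and 4 UMIs in suffixes 1 to 4, or 1.70, 1.08, 0.503 and 0.468 CPM. That places it below the 5 CPM minimum, and its ratio of 3.64 had an interval from 1.12 to 15.3.

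The subunits of glutamate-cysteine ligase differed in how they varied. Gclm had 43.2, 56.2, 26.1 and 33.6 CPM in suffixes 1 to 4, with a ratio of suffix 2 to suffix 3 of 2.16 (1.85 to 2.52). It was highest in suffix 2 and lowest in suffix 3, and the counting intervals of the 4 suffixes did not overlap. Gclc had 4.45, 6.48, 4.63 and 7.13 CPM, with a ratio of suffix 4 to suffix 1 of 1.60 (1.04 to 2.52), and the intervals of every pair of suffixes overlapped.

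In the thioredoxin branch, the reductase and the peroxiredoxin varied more than thioredoxin. Txnrd1 had 64.4, 52.7, 30.3 and 30.5 CPM in suffixes 1 to 4, high in suffix 1, lower in suffix 2 and nearly equal in suffixes 3 and 4, with a ratio of 2.12 (1.84 to 2.46). Prdx1 had 724, 657, 427 and 452 CPM in the same order, with a ratio of suffix 1 to suffix 3 of 1.69 (1.63 to 1.76). Txn1 stayed between 566 CPM in suffix 1 and 615 CPM in suffix 4, a ratio of 1.09. With TMM factors the ratios were 1.90 for Txnrd1, 1.52 for Prdx1 and 1.19 for Txn1. The summed level of 18 immediate early and handling stress genes was 3837, 3517, 2633 and 2809 CPM in suffixes 1 to 4, and that of 42 S phase genes was 3842, 3142, 2197 and 2262 CPM. Both sums were highest where Txnrd1 and Prdx1 were highest, and their part in these levels was not tested.

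Among the enzymes that act directly on superoxide and hydrogen peroxide, Sod1 ran against the others. Sod1 had 51.0, 44.1, 71.3 and 70.2 CPM in suffixes 1 to 4, high in suffixes 3 and 4, with a ratio of suffix 3 to suffix 2 of 1.62 (1.42 to 1.84). Cat had 39.9, 37.5, 25.9 and 30.8 CPM, with a ratio of suffix 1 to suffix 3 of 1.54 (1.30 to 1.83), which was 1.38 with TMM factors and so fell under 1.5-fold. Gpx1 had 2805, 2921, 2296 and 2346 CPM, a ratio of 1.27 that was 1.19 with TMM factors. Sod1 had a ratio of 1.73 with TMM factors, so its order of suffixes 3 and 2 stood under both scalings. The Sod1 gene overlaps Scaf4 on the opposite strand, and no source used here states whether the counting used strand.

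**Figure D1:**
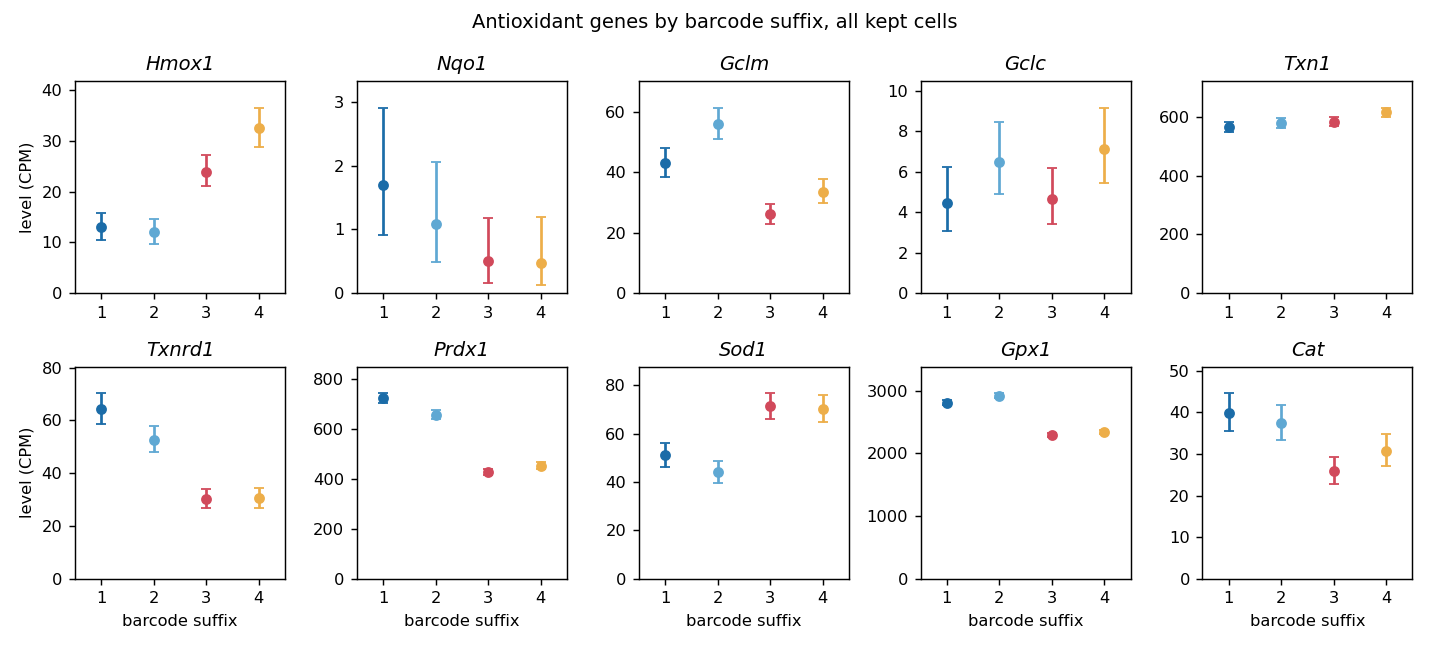
Level (CPM, vertical axis) of each of the 10 genes by barcode suffix (horizontal axis), over all kept cells. Points are levels and bars are 95% exact Poisson intervals, which cover counting error only. Hmox1 and Sod1 sit higher in suffixes 3 and 4, Txnrd1, Prdx1 and Gpx1 higher in suffixes 1 and 2, and Txn1 stays between 566 and 615 CPM.

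Myeloid stages were defined by clustering all cells without the 10 genes and without the other redox genes described below, so that none of them shaped a cluster. Of 13 clusters, 3 could be named from markers. The granulocyte precursor-like class held 485 cells, led by Nkg7, Ms4a3, Mpo and Elane, of which 200 and 279 lay in suffixes 1 and 2 and 3 each in suffixes 3 and 4. The monocyte-like class held 640 cells, of which 349 and 273 lay in suffixes 3 and 4. It was led by Ifitm3, Apoe, Lpl and S100a6, and beside 14 raised monocyte markers it had 6 raised macrophage markers. The unnamed cluster led by Cd74 and Kctd14 also had 11 raised monocyte markers, beside 8 of dendritic cells and MHC class II. The neutrophil-like class held 266 cells, led by S100a9, Camp and Ngp, of which 141 and 101 lay in suffixes 3 and 4. Each class was set against the rest of its own suffix wherever both sides held 30 cells or more, so precursors were read in suffixes 1 and 2 and the other classes in suffixes 3 and 4. A gene was counted as higher or lower where the median ratio was at least 1.5-fold and each usable suffix went the same way. These are counts by size and not tests.

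Granulocyte precursor-like cells had more Gclm and less Hmox1 than the other cells of their suffix. That is 1 gene higher and 1 lower of the 9, against 3.01% and 10.5% of 8244 genes. Gclm had 74.8 and 80.9 CPM in precursors of suffixes 1 and 2, against 36.0 and 47.9 CPM in the other cells, a log2 ratio of 0.89 at the median. Both precursor values lay above both values of the other cells, and this was the highest Gclm level among the clusters with at least 30 cells in either suffix. Hmox1 had 6.35 and 4.76 CPM in precursors, against 14.5 and 14.5 CPM in the other cells, a log2 ratio of -1.25, with ratios of 0.439 (0.194 to 0.871) and 0.329 (0.153 to 0.634). The other 7 genes lay between -0.33 and 0.01 on the log2 scale, beside a median of -0.10 over all genes. At 2-fold Gclm was not counted. At 1.5-fold the Gclm count was lost in 2 of 11 alternatives, with log2 ratios of 0.76 and 0.50. In those 2 the precursor class also held 87 and 68, or 65 and 55, cells of suffixes 3 and 4. Without a cell filter it held 61 and 45 such cells, and Gclm still met the rule at 0.65.

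Monocyte-like cells stood out for Hmox1. Of the 9 genes, 2 were higher and 3 lower than in the other cells, against 16.2% and 21.3% of genes, and shares of the 9 this near to those of all genes are no result about the 9 together. Hmox1 had 61.1 and 96.2 CPM in monocyte-like cells of suffixes 3 and 4, against 17.8 and 23.4 CPM in the other cells. Both values lay far above those of the other cells, with ratios of 3.43 (2.60 to 4.49) and 4.11 (3.19 to 5.27) and a median log2 ratio of 1.86. After every cell was thinned to 2000 UMIs, 93 of 625 monocyte-like cells had an Hmox1 UMI, which is 14.9% (exact binomial interval 12.2 to 17.9), and 25.2% had one without thinning. Among granulocyte precursor-like cells it was 4 of 481, or 0.832%, and 3.71% without thinning, with median depths of 3812 and 7303 UMIs in the monocyte-like and the precursor-like class. No class here is known to lack the gene, so the precursor share is given as the lowest of the named classes and not as a background of free RNA.

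Catalase also met the rule in monocyte-like cells, narrowly. Cat had 35.5 and 48.6 CPM in monocyte-like cells, against 24.3 and 28.2 CPM in the other cells, a log2 ratio of 0.65, and in 7 of 10 alternatives it no longer met the rule, with values down to 0.47. The thioredoxin pair was lower. Txn1 had 395 and 373 CPM in monocyte-like cells, against 615 and 649 CPM in the other cells, a log2 ratio of -0.72. Txnrd1 had 13.5 and 21.5 CPM, against 33.1 and 31.8 CPM, a log2 ratio of -0.89, and the suffixes differed in size, with ratios of 0.408 (0.242 to 0.649) and 0.675 (0.420 to 1.04). Both monocyte-like values lay below both values of the other cells for each of these genes. Gclm was lower as well, at 17.1 and 18.7 CPM against 27.6 and 35.7 CPM in the other cells, a log2 ratio of -0.78. Low levels of these 3 genes were not particular to this class. With suffixes summed, Gclm, Txn1 and Txnrd1 had 18.5, 382 and 17.3 CPM in it. The Cd74 and Kctd14 cluster, also with raised monocyte markers, had 12.3, 229 and 17.2 CPM, on 5, 93 and 7 UMIs. Hmox1 was at 32.0 CPM in that cluster, against 76.2 CPM in monocyte-like cells. In 1 clustering that allowed redox genes among the variable genes, the monocyte-like class held 557 cells, with 30, 36, 251 and 240 in suffixes 1 to 4. Its overlap with the 640 cells was not computed. There Gclm was at 0.00 on the log2 scale, Txn1 at -0.41 and Txnrd1 at -0.49, so that none of the 3 met the rule. Txn1 missed the rule in 3 of 10 alternatives, also with cells thinned to 2000 UMIs, at -0.58, and at Leiden resolution 1.5, at -0.55. Txnrd1 missed it in 2 of 10, also with cell cycle, ribosomal protein and mitochondrial genes kept out of the clustering, at -0.60, where the suffixes did not go the same way. Prdx1 at -0.16, Sod1 at 0.20 and Gpx1 at 0.07 differed little from the median of all genes, which was -0.04. The summed level of S phase markers was the lowest of the 13 clusters in monocyte-like cells, at 597 CPM. It was highest, at 5119.5 CPM, in the cluster led by Phgdh and Fabp5, which had 8 and 19 cells in suffixes 3 and 4. Other clusters were also low. The cluster led by Cd74 and Kctd14 had 666 CPM, with Txn1 at 229 CPM, and the cluster led by Retnla and Prg2 had 888 CPM, with Txn1 at 610 CPM. The part of S phase markers in the thioredoxin values was not tested.

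Neutrophil-like cells had low Prdx1, Sod1 and Cat, and less Hmox1 than the other cells of their suffix. None of the 9 genes was higher and 4 were lower, against 6.50% and 34.2% of genes, and the median of all genes was itself at -0.38 in this class, so ratios here are read relative to it. Prdx1 had 138 and 120 CPM in neutrophil-like cells of suffixes 3 and 4, against 457 and 476 CPM in the other cells, a log2 ratio of -1.85. Sod1 had 24.6 and 30.8 CPM, against 76.1 and 73.1 CPM, a log2 ratio of -1.41. For both genes the neutrophil-like values were far below those of the other cells in each suffix, and Prdx1 was lower there than in any other cluster with at least 30 cells in those suffixes. For Sod1 the same held in suffix 3, while in suffix 4 the 31 cells of the cluster led by Cd74 and Kctd14 had 24.1 CPM.

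Catalase followed the same way in neutrophil-like cells, with 13.9 and 12.0 CPM against 27.1 and 32.1 CPM in the other cells, a log2 ratio of -1.13. Hmox1 was less even. It had 7.48 and 25.7 CPM in neutrophil-like cells of suffixes 3 and 4, against 25.7 and 33.0 CPM in the other cells, with ratios of 0.291 (0.116 to 0.610) and 0.778 (0.429 to 1.31), so only the suffix 3 interval lay below 1, and the count was lost when cells were not filtered, at -0.34. The other cells of these suffixes include the monocyte-like class, and with suffixes summed the 16.2 CPM of neutrophil-like cells was the median of the 13 clusters. Txn1 stood on the other side of the median of all genes, with 742 and 762 CPM against 568 and 604 CPM, a log2 ratio of 0.36 that reached 0.62 with TMM factors and then met the rule. Gpx1, at 1841 and 1881 CPM against 2344 and 2380 CPM, had a log2 ratio of -0.34, about that of the median gene. Neutrophil-like cells also had fewer mitochondrial UMIs, with a median of 1.67% against 2.21% to 3.03% in the other 12 clusters, and the summed handling stress genes were at 1743 CPM against 2128 to 4495 CPM. Their part in the lower values was not tested.

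**Figure D2:**
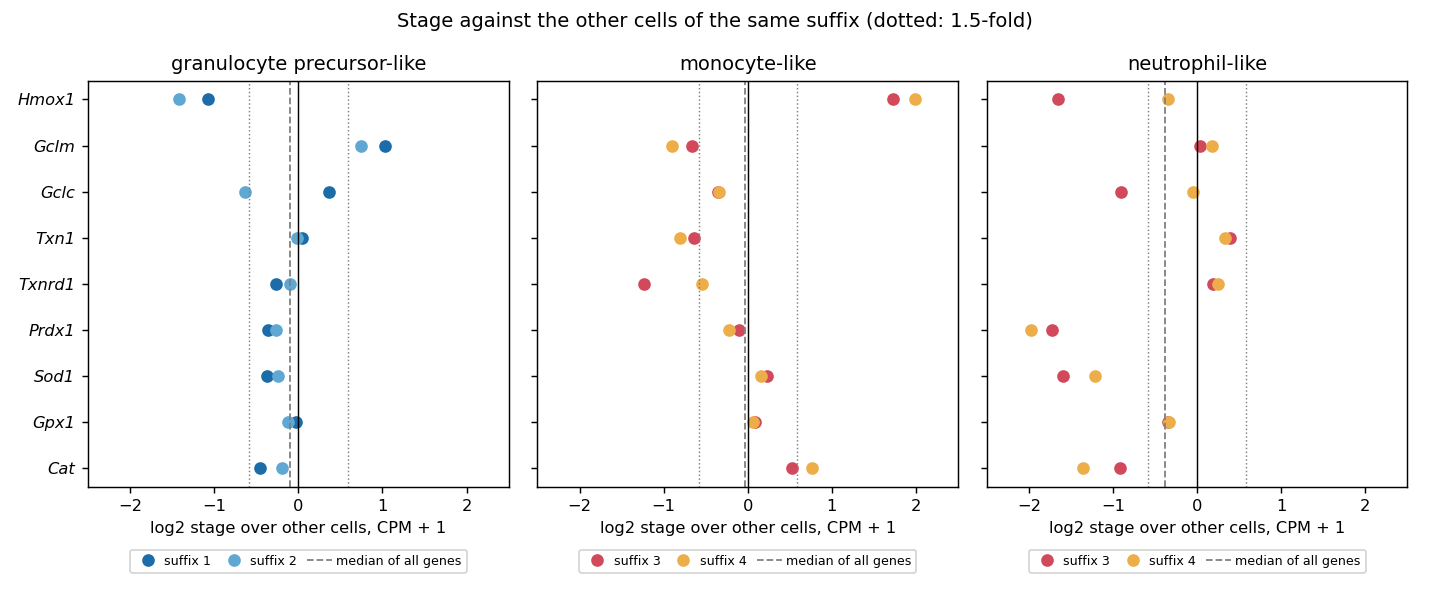
Log2 ratio (CPM + 1) of each class to the other cells of the same suffix (horizontal axis) for 9 genes (vertical axis). Each point is 1 suffix, dotted lines mark 1.5-fold and the dashed line the median of 8244 genes. Hmox1 lies at 1.86 at the median in monocyte-like cells, Gclm at 0.89 in granulocyte precursor-like cells, and Prdx1, Sod1 and Cat lie at -1.85, -1.41 and -1.13 in neutrophil-like cells.

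Over all 13 clusters with suffixes summed, Hmox1 had the widest range of the 9 genes that had a UMI in every cluster. It was 76.2 CPM (65.9 to 87.7) in monocyte-like cells and 5.61 CPM (3.43 to 8.66) in granulocyte precursor-like cells, a ratio of 13.6 (8.56 to 22.8). These classes lie mostly in different suffixes, so the ratio holds differences between suffixes too. Next in order came the cluster led by Cpa3 and Tsc22d1 at 38.1 CPM and the cluster led by Tgm3 and Gpx3 at 38.0 CPM, which did not differ beyond counting error. Clusters led by Cd74 and Kctd14 and by Retnla and Prg2 followed at 32.0 and 30.4 CPM. At the low end the cycling clusters led by Phgdh and Fabp5 and by Hist1h2ap had 6.98 and 7.58 CPM. The cluster led by Prg2 and Mogat2 had 7.95 CPM, and all of these lay within the interval of the precursors. The cycling cluster led by Ube2c and Ccnb1 stood outside it, at 11.7 CPM.

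With suffixes summed, Prdx1 ranged from 806 CPM in the Phgdh and Fabp5 cluster to 134 CPM in neutrophil-like cells, a ratio of 6.01 (5.24 to 6.91). Within suffixes the high end varied among cycling clusters. The Phgdh and Fabp5 cluster had 873 CPM in suffix 1, and the Ube2c and Ccnb1 cluster 835 CPM in suffix 2, against 776 CPM in the Phgdh and Fabp5 cluster there. In suffixes 3 and 4 the Hist1h2ap cluster was highest, at 634 and 659 CPM. With all suffixes summed, Gclm ranged from 77.7 CPM in granulocyte precursor-like cells to 12.3 CPM in the Cd74 and Kctd14 cluster, and 15.3 CPM in the Cpa3 and Tsc22d1 cluster stood next to that low end. Txnrd1 was at 74.6 CPM in the cluster led by Cpa3 and Npy, which was highest also within suffixes 1 and 2, and at 17.2 CPM in the Cd74 and Kctd14 cluster, with monocyte-like cells just above it. Within these 2 suffixes the lead was within counting error. It was 78.4 against 72.7 CPM in the cluster led by Hist1h2bc and Mpo in suffix 1. In suffix 2 it was 66.7 against 62.9 CPM in the Phgdh and Fabp5 cluster. Txn1 and Sod1 shared their highest cluster, led by the S phase gene Hist1h2ap, at 755 and 95.8 CPM, and it led for both genes within suffixes 3 and 4, where most of its cells lay. For Txn1 this lead was within counting error. Neutrophil-like cells had 747 CPM (706 to 790) with suffixes summed, and 742 and 762 CPM against 748 and 772 CPM in suffixes 3 and 4. The lowest clusters of Txn1 and Sod1 differed: Txn1 was at 229 CPM in the Cd74 and Kctd14 cluster, and Sod1 at 25.9 CPM in neutrophil-like cells.

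Gpx1 had the narrowest range across clusters with suffixes summed, from 3030 CPM in the cluster led by Hist1h2bc and Mpo to 1968 CPM in neutrophil-like cells, a ratio of 1.54 (1.48 to 1.60). That cluster led within no suffix. The Cpa3 and Tsc22d1 cluster had the highest level in suffixes 1 and 2, at 3195 and 3455 CPM, and the Ube2c and Ccnb1 cluster in suffixes 3 and 4, at 2885 and 2766 CPM, where neutrophil-like cells were lowest. Cat ranged from 45.3 CPM in the Cpa3 and Npy cluster to 15.6 CPM in neutrophil-like cells, and the intervals of 8 clusters reached that highest level. Gclc ranged from 8.43 to 3.53 CPM, a ratio of 2.39 whose interval, 0.942 to 7.75, includes 1. Nqo1 had no UMI in 5 of the 13 clusters, among them the monocyte-like and the neutrophil-like class. In the monocyte-like cells of suffixes 3 and 4 a count of 0 allows a level of up to 3 UMIs, which is 2.13 and 2.80 CPM.

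**Figure D3:**
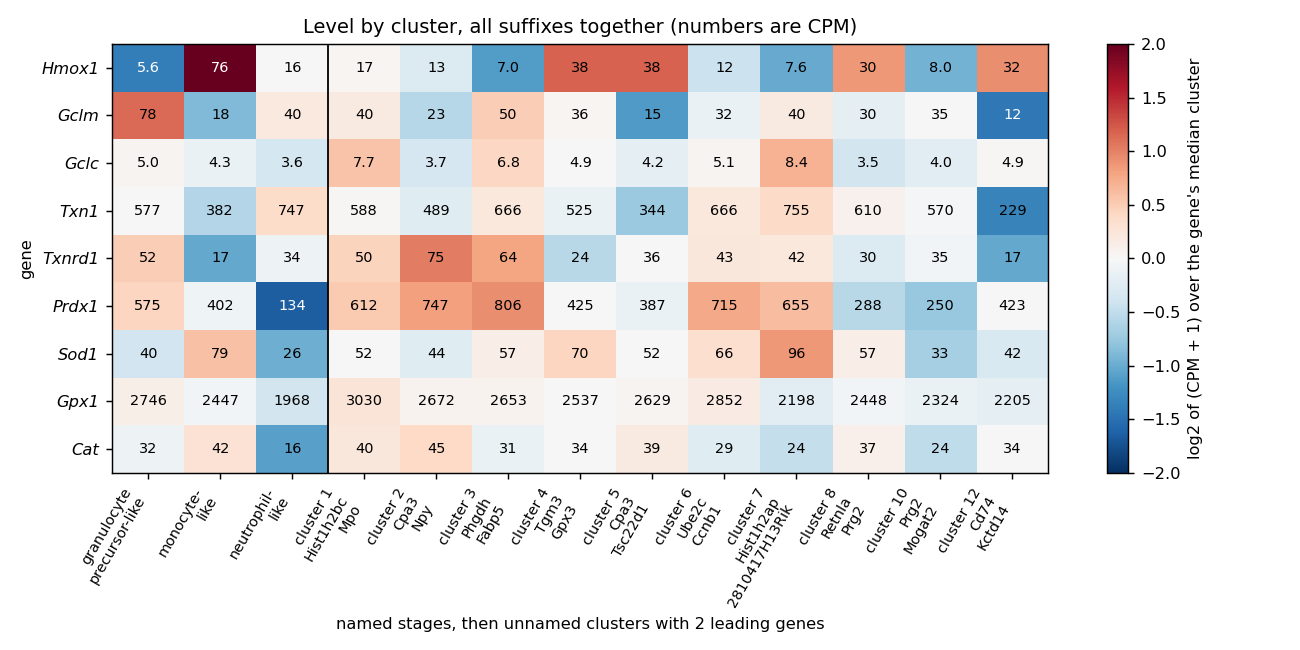
Level (CPM, printed in each cell) of 9 genes in the 3 named classes and the 10 unnamed clusters, with all suffixes summed. Colour is log2 of (CPM + 1) over that gene's median cluster. Hmox1 is highest in monocyte-like cells at 76.2 CPM, Gclm in granulocyte precursor-like cells at 77.7 CPM, and Prdx1, Sod1, Gpx1 and Cat are lowest in neutrophil-like cells.

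To separate the suffix from the makeup of its cells, levels were read inside the 4 unnamed clusters that had at least 30 cells in every suffix. Gclm and Gpx1 were highest in suffix 2 in all 4 clusters, Sod1 was highest in suffix 3 in all 4, and Cat was highest in suffix 1 and lowest in suffix 3 in all 4. The share of all genes with such an order was not counted. Gclm was lowest in suffix 1 in 2 of these clusters. It had 31.4 CPM there against 31.5 CPM in suffix 4 in the Hist1h2bc and Mpo cluster. In the Ube2c and Ccnb1 cluster it had 19.6 CPM against 21.7 CPM in suffix 3. With the 4 clusters weighted equally, all genes had medians of 0.08, 0.04, -0.08 and -0.07 in suffixes 1 to 4. Those medians are log2 values relative to each gene's mean over suffixes. An order with suffix 1 or 2 on top thus holds part of a shift common to most genes. The ratio of highest to lowest suffix had an interval above 1 in all 4 clusters for Gpx1, narrowly in the Ube2c and Ccnb1 cluster (1.01 to 1.15). Each pair was picked as the highest and lowest of these same values, so an interval above 1 is no test of a difference. For Gclm the interval included 1 in the cluster led by Cpa3 and Tsc22d1 (0.857 to 8.004). For Sod1 it did so in that cluster (0.887 to 4.54) and in the cluster led by Tgm3 and Gpx3 (0.797 to 3.26), and for Cat in the same 2 clusters (0.807 to 3.16 and 0.842 to 3.56). Sod1 was also nearly equal in suffixes 3 and 4, for example at 73.2 and 71.8 CPM in the Tgm3 and Gpx3 cluster. Prdx1 was highest in suffix 1 in 3 clusters and in suffix 2 in the other, by 1.23-fold to 1.52-fold over the lowest suffix. In the cluster led by Ube2c and Ccnb1 it had 857, 835, 565 and 604 CPM in suffixes 1 to 4, high in suffixes 1 and 2 and low in suffixes 3 and 4.

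Hmox1 kept no such order. In the Ube2c and Ccnb1 cluster it had 3.02, 6.73, 9.06 and 25.5 CPM in suffixes 1 to 4, whereas in the Hist1h2bc and Mpo cluster it had 20.6, 16.8, 10.9 and 10.5 CPM. These orders were opposite, but both rested on intervals that mostly overlapped. In the first, on 2, 4, 5 and 19 UMIs, only the intervals of suffixes 1 and 4 lay apart. In the second, the intervals of every pair of suffixes overlapped, with a ratio of highest to lowest of 1.96 (0.738 to 6.57). Txn1 was lowest in suffix 1 in 2 clusters and in suffix 2 in the other 2, with ratios from 1.25 to 1.34.

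**Figure D4:**
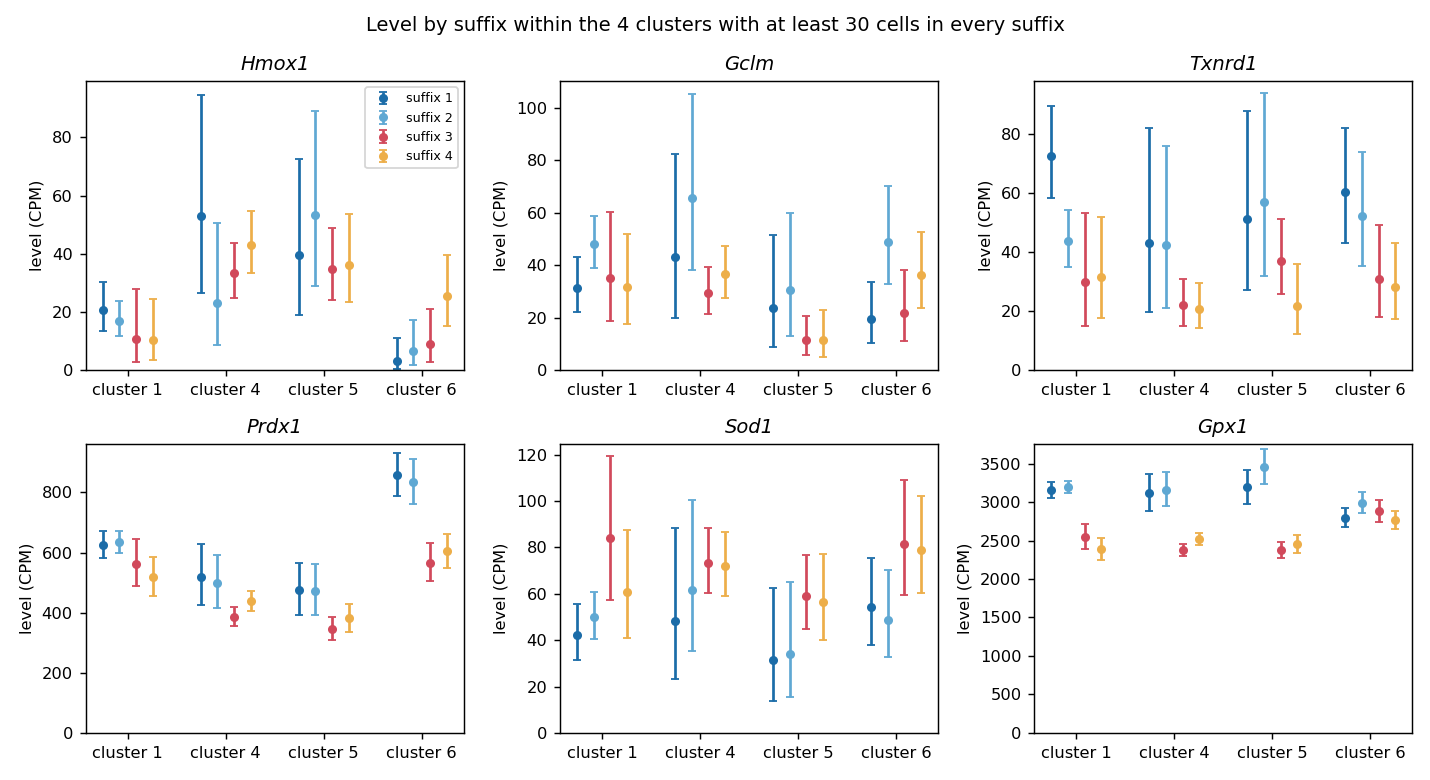
Level (CPM, vertical axis) of 6 genes by suffix inside the 4 clusters with at least 30 cells in every suffix (cluster 1 led by Hist1h2bc and Mpo, cluster 4 by Tgm3 and Gpx3, cluster 5 by Cpa3 and Tsc22d1, cluster 6 by Ube2c and Ccnb1). Bars are 95% exact Poisson intervals for counting error only. Sod1 is highest in suffix 3 and Gpx1 in suffix 2 in all 4 clusters, and Hmox1 has no common order. The share of all genes with such an order was not counted.

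Other genes of the redox system, 91 in the table and 70 with at least 5 CPM, were counted by the same rule. In monocyte-like cells 20 of the 70 were higher and 4 lower, against the 16.2% and 21.3% of all genes. Their median log2 ratio was 0.26, beside -0.04 over all genes and -0.16 for the 9 antioxidant genes. In neutrophil-like cells 14 were higher and 22 lower, with a median of -0.17 beside -0.38 over all genes. That split was 17 and 13 with TMM factors, and over all genes it was 536 and 2821 by totals, against 931 and 1727 with TMM factors. In granulocyte precursor-like cells 8 were higher and 4 lower, with a median of 0.01 beside -0.10. There the split over all genes was 248 and 864 by totals, against 338 and 682 with median of ratios factors.

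Of 9 regulators of NRF2, 3 were higher in monocyte-like cells and none lower, against the same 16.2% and 21.3% of all genes. Nfe2l2, encoding NRF2, had 62.5 and 80.3 CPM in monocyte-like cells of suffixes 3 and 4, against 39.7 and 40.6 CPM in the other cells, a log2 ratio of 0.80. Its competitor Bach1, a known repressor of Hmox1, had 21.3 and 19.6 CPM, against 8.91 and 10.2 CPM, a log2 ratio of 1.03. Mafg, a small MAF partner of both, was at 0.92. Activator, competitor and partner were thus higher in the same class, while Keap1, at 0.34, did not meet the rule. In neutrophil-like cells 1 of the 9 was lower, Mafk at -1.39, and in precursors none met the rule.

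Among 15 other NRF2 targets over the minimum, 5 were higher and none lower in monocyte-like cells, against the same shares of all genes. They included the ferritin chains Ftl1 and Fth1, which store the iron that heme breakdown frees, at 0.72 and 0.67, and G6pdx, an NADPH-making enzyme, at 0.77. Ferritin went the other way in neutrophil-like cells, with Ftl1 at -0.81 and Fth1 at -1.24. Fth1 had 858 and 854 CPM in neutrophil-like cells, against 1983 and 2080 CPM in the other cells, so it lay far below them in both suffixes. Mgst1, a membrane-bound glutathione transferase, was higher in each named class, at 0.99 in precursors, 0.78 in monocyte-like and 0.95 in neutrophil-like cells. Srxn1 and Slc7a11, which encode sulfiredoxin and the cystine importer and are widely used NRF2 readouts, were also scarce, at 3.12 to 4.09 and 0.131 to 1.29 CPM over the suffixes.

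In the glutathione system 3 of 15 genes were higher in granulocyte precursor-like cells and none lower, against 3.01% and 10.5% of all genes. Gsr, which encodes glutathione reductase, had 939 and 1044 CPM in precursors, against 555 and 690 CPM in the other cells, a log2 ratio of 0.68. Gsr also belongs to the other NRF2 targets above. Mgst2 and Glrx, a microsomal transferase and glutaredoxin, were at 1.08 and 0.59, and Glrx only just met the rule, with ratios of 1.46 and 1.55 in suffixes 1 and 2. These 3 genes were also the 3 counted as higher in neutrophil-like cells, where Gsr was at 0.59, Mgst2 at 1.52 and Glrx at 1.43, while 6 others were lower, against 6.50% higher and 34.2% lower over all genes, among them Gpx3, the secreted peroxidase, at -1.16. In monocyte-like cells Gpx3 was at 0.80 and Gstz1, an enzyme of tyrosine breakdown, at -1.08, and the count was 2 higher and 1 lower.

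Thioredoxin and peroxiredoxin genes other than the ones above split within each class. Of 18, 2 were higher and 4 lower in precursors, 5 higher and 2 lower in monocyte-like cells, and 4 higher and 8 lower in neutrophil-like cells. Over all genes the shares higher and lower were 3.01% and 10.5% in precursors, 16.2% and 21.3% in monocyte-like cells, and 6.50% and 34.2% in neutrophil-like cells, so the 8 lower genes are near the share of all genes. Prdx4, the peroxiredoxin of the endoplasmic reticulum, had 10.6 and 6.19 CPM in precursors, against 47.5 and 51.1 CPM in the other cells. In neutrophil-like cells it had 7.48 CPM in suffix 3 and no UMI in suffix 4, where a count of 0 allows up to 5.14 CPM, against 80.2 and 99.2 CPM in the other cells. Prdx5, a peroxiredoxin of mitochondria, peroxisomes and cytosol, went against Prdx1 in neutrophil-like cells, with 2283 and 2602 CPM against 1043 and 1065 CPM, a log2 ratio of 1.21. Txnip, which binds and restrains thioredoxin, was at 1.68 in monocyte-like cells, where Txn1 was lower, and at -1.29 in neutrophil-like cells. Msrb1, a methionine sulfoxide reductase, was higher in each named class, at 0.83, 0.85 and 0.59 in precursors, monocyte-like and neutrophil-like cells.

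Among other dismutases and genes of heme breakdown, none of 5 met the rule in precursors. Sod2, the mitochondrial dismutase, was lower in neutrophil-like cells, at 59.9 and 37.7 CPM against 85.1 and 94.2 CPM in the other cells, a log2 ratio of -0.90. Hmox2, the constitutive heme oxygenase, was higher in monocyte-like cells, with 102 and 110 CPM against 72.1 and 68.2 CPM. Its log2 ratio of 0.59 only just met the rule. Ccs, the copper chaperone of SOD1, was lower in neutrophil-like cells, at -0.68, where Sod1 was lower as well. Blvra and Blvrb, which encode the biliverdin reductases that act after heme oxygenase, did not meet the rule in monocyte-like cells, at 0.28 and 0.48.

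Several genes that make reactive oxygen were higher in the monocyte-like and neutrophil-like classes. In monocyte-like cells 4 of 10 were higher and 1 lower, against 16.2% and 21.3% of all genes, and in neutrophil-like cells 4 were higher and 2 lower, against 6.50% and 34.2%. Cybb, the catalytic subunit of the phagocyte NADPH oxidase, had 431 and 465 CPM in monocyte-like cells, against 125 and 137 CPM in the other cells, a log2 ratio of 1.76, and it was at 1.04 in neutrophil-like cells. Ncf1, a cytosolic subunit of that oxidase, was at 1.31 in neutrophil-like cells, and Xdh, which encodes xanthine dehydrogenase, was at 2.18 in monocyte-like and -1.61 in neutrophil-like cells. Mpo, the myeloperoxidase of primary granules, had 4641 and 4480 CPM in precursors, against 1603 and 1840 CPM in the other cells, and 27.7 and 19.6 CPM in monocyte-like cells, against 512 and 505 CPM. Mpo is also a marker used to name the precursors, so its level there is part of the name. Neutrophil-like cells held more Cybb, Ncf1, Ncf4 and Hvcn1 in the same suffixes in which they held less Prdx1, Sod1 and Cat, and whether these levels are linked was not tested.

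**Figure D5:**
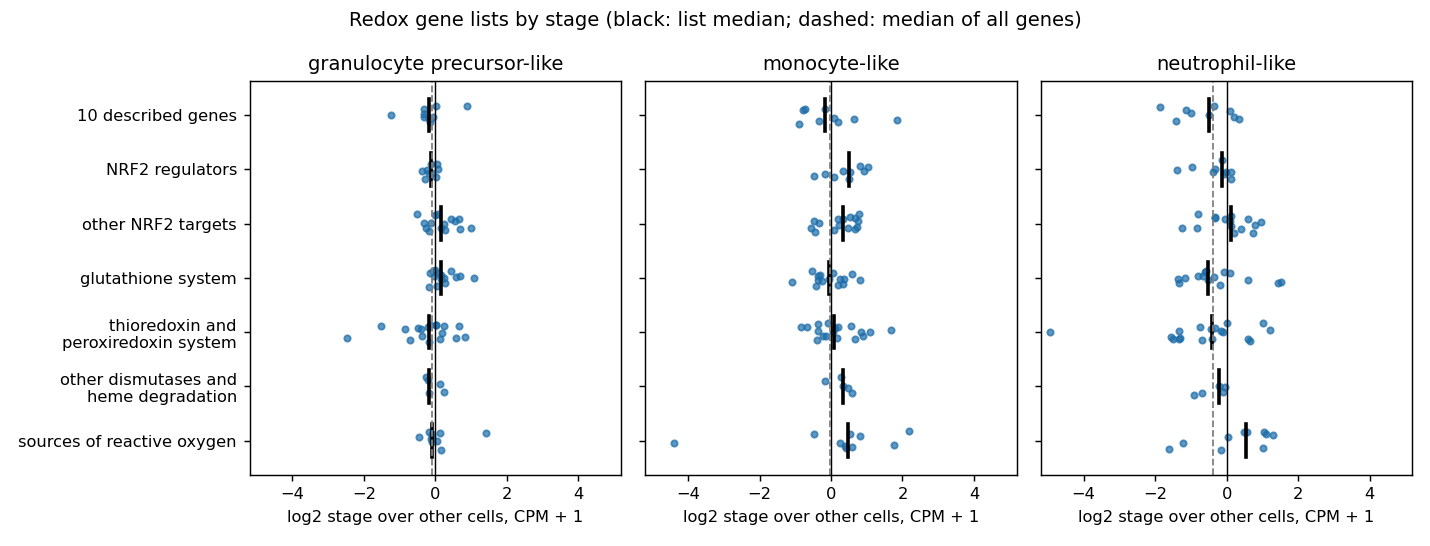
Median log2 ratio (CPM + 1) of each class to the other cells of the same suffix (horizontal axis) for every gene of 7 lists with a mean of at least 5 CPM (vertical axis). Points are genes, black bars are list medians and dashed lines the median of all 8244 genes. NRF2 regulators have a median of 0.51 in monocyte-like cells and sources of reactive oxygen one of 0.53 in neutrophil-like cells, where the median of all genes is -0.38.

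The genes whose levels ran most like each member were sought over 35 sums of cells, 1 for each cluster and suffix with at least 30 cells, among genes with at least 20 CPM. These sums share libraries and some share a cluster, so the correlations describe the sums and carry no p-value. Prdx1 ran with Zfp706 (Pearson r = 0.93), Ywhae (0.91) and Mrpl54 (0.91), and with the summed handling stress genes at 0.85. Txn1 ran with Tuba4a (0.92), Cenpw (0.87) and Ccdc34 (0.83), and with S phase genes at 0.64. Txnrd1 ran with Pcbp1 (0.83), Tra2b (0.82) and Cbx3 (0.82), and, like Txn1, with S phase genes, at 0.71.

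For Gpx1 the closest were 1110008F13Rik (0.88), Vimp (0.87) and Dctn3 (0.86), and for Hmox1 they were Capns1 (0.86), Card19 (0.85) and Myo1f (0.84). Cat ran with Cebpa (0.81), a transcription factor of myeloid differentiation, Gclm with Hnrnpll (0.82) and Sod1 with Adss (0.77). The closest genes of the scarce Gclc and Nqo1 reached 0.71 and 0.63, where few UMIs stand behind each sum. Among pairs of the 10 genes, the highest correlation was 0.62, between Prdx1 and Gpx1, followed by 0.58 between Gpx1 and Cat. Txn1 and Cat were at -0.54, Hmox1 and Txn1 at -0.51, and Txn1 and Prdx1 at 0.03, so the 10 genes did not move as a block over these sums.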

How the data were processed

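The authors deposited raw UMI counts by gene symbol and barcode in a table that pools the 4 samples. Per the labels' protocols, the kit was the 10x Genomics Chromium Single Cell 3' version 2. The submitters' processing notes name Cell Ranger 1.3, the mm10 build and Seurat 2.3.4, while Seurat 1.4 stands in the design text. Which annotation was used, and how reads shared by a gene and its near-identical copies or antisense partners were counted, are not stated there, so genes with processed copies elsewhere in the genome are uncertain to that extent.

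Barcodes were kept from 500 UMIs upward if no more than 10% of them were mitochondrial, and the suffixes then held 7644436 to 9932649 UMIs. A count of 0 over a suffix allows up to 3 UMIs, or 0.302 to 0.392 CPM. Cells were log-normalised to 10000 UMIs and clustered with scanpy 1.11.5 in Python 3.11.15 (2000 variable genes without the redox genes, 30 principal components, 15 neighbours, Leiden resolution 1, fixed seed). A cluster took a name where at least 3 markers of that type were 2-fold above the other cells at 20 CPM or more, and where no other type had as many markers, overall or within the 10 genes of largest fold (computed after adding 10 CPM). Scrublet marked 27 of 5456 cells (0.495%), too few for the caller to be relied on, and doublets were kept.

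UMIs were summed over cells and divided by totals. Class ratios are log2 of (CPM + 1) over (CPM + 1), which understates changes of low genes, and each gene is given by its median across usable suffixes. Intervals, at 95%, are exact Poisson (levels), conditional binomial (ratios) or Clopper-Pearson (shares), and cover counting error only. Highest and lowest suffixes or clusters were chosen from the same counts, and the interval of their ratio takes no account of that choice. The counting rule was tested on simulated data. Alternatives covered the cell filter, scaling (TMM factors from edgeR 4.0.16 and R 4.3.3, and median of ratios), depth, doublets, pseudocount, clustering and the fold. Numbers of alternatives given for a single gene are all at 1.5-fold and leave out the 2-fold setting. Named were the 10 genes, in each redox list the 2 with the highest level and the 2 others with the largest ratio per class, and the 5 leading genes of a cluster. Further redox genes were named to complete short counts after their values were seen. The 10 genes and all lists were chosen with earlier results of these data known.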

Additional observations from a re-analysis of the deposited data

How the results depend on the processing

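For the 9 antioxidant genes, 11 pairs of a gene and a class met the rule, and 5 met it in every alternative that gave their class: Hmox1 in granulocyte precursor-like and monocyte-like cells, and Prdx1, Sod1 and Cat in neutrophil-like cells. At 2-fold the suffix count was 3 in place of 7, against 12.8% in place of 41.9% of all genes. At 2-fold the 9 genes gave 0 higher in precursors, and 1 higher and 0 lower in monocyte-like cells. At 2-fold the other redox genes gave 2 higher and 2 lower in precursors, 5 higher and 2 lower in monocyte-like cells, and 8 higher and 13 lower in neutrophil-like cells. Over all 8244 genes, 2-fold gave 68 higher and 304 lower in precursors. It gave 522 and 911 in monocyte-like cells, and 244 and 1320 in neutrophil-like cells. The single higher gene left in monocyte-like cells, with a count of 1, was Hmox1 also without a cell filter, with TMM factors, thinned to 2000 UMIs, with a pseudocount of 5 CPM, at Leiden resolution 1.5, with redox genes allowed among the variable genes, and with cell cycle, ribosomal protein and mitochondrial genes kept out. Over all genes, 619 to 1323 were higher in monocyte-like cells in these settings. Neutrophil-like cells had 1 higher gene, Txn1, with TMM factors and with median of ratios factors, where the other redox genes gave 13 lower. Over all genes, neutrophil-like cells had 931 higher and 1727 lower with TMM factors, and 1016 and 1605 with median of ratios factors. Thinning also gave 1 higher gene there, Gclc, which on few UMIs was at 1.00 on the log2 scale in place of -0.48. Over all genes, thinning gave 657 higher and 3087 lower in that class. Without a cell filter, precursors had 3 of the 9 lower, and the other redox genes gave 10 lower in precursors and 10 lower in monocyte-like cells. Over all genes, 1063 were then lower in precursors and 1869 in monocyte-like cells. Thinning gave 7 lower other redox genes in precursors, against 1381 lower over all genes. At Leiden resolution 0.5 precursors had 0 higher and 3 lower of the 9, with 9 lower other redox genes, and no monocyte-like class was found. Over all genes, precursors then had 236 higher and 999 lower. With cell cycle genes kept out they had 0 higher and 3 lower, with 7 lower others, against 255 higher and 977 lower over all genes. At Leiden resolution 1.5 monocyte-like cells had 11 lower others, and without a minimum level 9. Over all genes, 2092 were lower in that class at resolution 1.5. With redox genes allowed among the variable genes, the monocyte-like class had 0 of the 9 lower, 7 others higher and 2 lower, and Gclm at 0.0032 on the log2 scale in place of -0.78. Over all genes, 619 were higher and 985 lower in that class. The cause of these changes was not tested. Where the clustering changed, the classes held other numbers of cells per suffix, and how far their cells overlapped was not computed.

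For single genes, 58 suffix ratios moved by less than their counting interval and 12 by more. No replicate could be left out, since each combination has 1 sample. No paired analysis was possible because the columns carry no sample or replicate number. Low counts limit Nqo1 and Gclc, and Hmox1 in small classes.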

Other observations

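For each of the 10 genes but Gclc, the values of suffixes 1 and 2 lay on 1 side of those of suffixes 3 and 4. The share of all genes that split this way was not counted, so this is no result about the 10 together. The medians of all genes split so too, at 0.10 and 0.03 against -0.09 and -0.06 on the log2 scale. Hmox1, at 12.95, 12.0, 24.0 and 32.5 CPM in suffixes 1 to 4, and Sod1, at 51.0, 44.1, 71.3 and 70.2 CPM, had both values of suffixes 1 and 2 below both of suffixes 3 and 4. So had Txn1, narrowly, at 566, 579, 584 and 615 CPM. Gclm, Txnrd1, Prdx1, Gpx1 and Cat had them above, and so had Nqo1, on 13, 9, 5 and 4 UMIs. These are levels over all kept cells. Inside 2 of the 4 clusters found in every suffix, Gclm was lowest in suffix 1. The suffixes have no assigned group, so this is a description of 4 libraries.

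The cystine importer Slc7a11, which feeds glutathione synthesis and lay below the 5 CPM minimum, had 7 and 4 UMIs in neutrophil-like cells of suffixes 3 and 4, or 7.48 and 6.85 CPM, against 5 and 7 UMIs in all other cells of those suffixes, or 0.556 and 0.879 CPM. Its ratios were 13.5 and 7.79, on few UMIs.

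The 208 barcodes removed for mitochondrial UMIs had lower Gpx1 and Txn1 levels than the kept cells. In suffix 1, the 43 removed barcodes had 1413 CPM of Gpx1 and 225 CPM of Txn1, against 2805 and 566 CPM in kept cells. In suffix 2, the 50 removed barcodes had 993 and 280 CPM, against 2921 and 579 CPM. These barcodes were picked for a mitochondrial share above 10%, which by itself lowers the CPM of other genes. Levels over non-mitochondrial UMIs were not computed, so the part of this in the lower values was not tested. Other members were not all lower, and Txnrd1 in suffix 3 had 46.5 CPM, on 7 UMIs, against 30.3 CPM in kept cells.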
